A study of Mus musculus with 8 samples.

Results

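The FKBP immunophilins are peptidyl-prolyl isomerases that were named for their binding of tacrolimus (FK506). The 10 genes Fkbp1a, Fkbp1b, Fkbp2, Fkbp3, Fkbp4, Fkbp5, Fkbp7, Fkbp8, Fkbp9 and Fkbp10 were taken by symbol from the 55487 genes measured in each library. They were chosen with earlier results of these data known. All 10 reached the minimum level for testing, as did 13032 genes in all. The study asked how intermittent tacrolimus acts on T cells that infiltrate a tumor. B16F10, a transplantable mouse melanoma line, was grown under the skin of C57BL/6 mice, and treatment started 7 to 9 days after the injection of tumor cells, when tumors measured about 50 mm3. A total of 4 mice received tacrolimus at 3 mg/kg into the peritoneum every 5 days, and 4 received vehicle on the same schedule. The harvest followed 6 days after treatment onset, and total RNA of cells sorted as CD8+ tumor-infiltrating lymphocytes gave 1 library per mouse. The titles call the control mice vehicle-treated and the design text calls them untreated. Age and sex of the mice, the number of sorted cells, and library or sequencing batches are not given in the sources used here.

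FKBP proteins catalyse the turning of peptide bonds before proline, and tacrolimus occupies the pocket in which this happens. The drug has its immunosuppressive action through FKBP12, the product of Fkbp1a: the complex of the drug and FKBP12 binds calcineurin and blocks the phosphatase that activates NFAT factors after T cell receptor signaling. Other family members work at other places in the cell, such as the HSP90 chaperone machine, the nucleus, the mitochondrial surface and the endoplasmic reticulum.

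Values are FPKM, that is, fragment numbers divided by transcript length and library size, so levels can be compared between genes. The libraries correspond to an estimated 15550000 to 19100000 fragments, and between 12724 and 13628 genes per library lay at 1 FPKM or more. The label was checked against markers. Cd8a, which encodes CD8 alpha, averaged 18.6 ± 12.2 FPKM with tacrolimus and 71.7 ± 54.5 with vehicle (SD, n = 4 each), while Pmel, a melanosome protein of pigment cells, was at 4956 ± 736 and 6477 ± 1629 FPKM. The summed FPKM of 12 T cell markers ran from 56.4 in tacrolimus replicate 2 to 1748 in vehicle replicate 1. That of 10 melanoma markers ran from 18664 in vehicle replicate 1 to 33890 in vehicle replicate 4, and that of 12 macrophage markers from 1014 to 2371. Vehicle replicate 1 thus had the highest T cell and macrophage sums and the lowest melanoma sum of the 8 libraries. Fibroblast and endothelial markers summed to between 40.3 and 81.3 FPKM, and 8 markers of CD4, natural killer and B cells to between 9.83 and 29.6. No T cell marker was at 0 in all libraries, but neither was any marker of the other lists, so this does not tell cell types apart. The lowest melanoma sum, 18664, exceeded the highest T cell sum, 1748. The values are thus not those of CD8+ T cells alone. FKBP genes are expressed in most cell types, so their levels here are those of the whole mixture, and their part from each cell type was not tested. In such bulk samples fewer cells of a type and less RNA per cell cannot be told apart.

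Fkbp1a was the most abundant by mean, at 335 ± 51.0 FPKM over the 8 libraries (SD, n = 8), followed by Fkbp4 at 292 ± 58.0, Fkbp3 at 259 ± 44.5 and Fkbp8 at 123 ± 16.3. Fkbp2 was at 101 ± 8.25 FPKM and Fkbp9 at 94.7 ± 23.9. Fkbp7 at 20.6 ± 2.42 FPKM, Fkbp5 at 12.2 ± 2.77, Fkbp10 at 10.1 ± 2.34 and Fkbp1b at 3.02 ± 0.87 made up the low end. Of the summed FPKM of these 10 genes, Fkbp1a gave 26.8%, Fkbp4 23.2% and Fkbp3 20.7% on average, while Fkbp5, Fkbp10 and Fkbp1b each gave under 1%. Other FKBP-type genes, such as Fkbp6 at a mean of 146 FPKM, are not in that sum. Ranked by FPKM within a library, Fkbp1a came 283rd to 466th and Fkbp1b 9259th to 12717th. Neighbours in this order were compared within libraries by an exact two-sided sign-flip permutation test over the 8 libraries, with Benjamini-Hochberg adjustment over 9 pairs. The order was taken from the same 8 libraries, so the test is no independent support for it and describes how steady each gap was. A pair in the same order in every library gets the smallest possible p, whatever the size of its gap. In all, 6 pairs passed an adjusted p of 0.05. Fkbp1a exceeded Fkbp4 in 8 of 8 libraries, though by as little as 1.01-fold and by at most 1.27-fold (exact permutation adjusted p = 0.0141). The pairs whose difference did not exceed the spread between libraries were Fkbp4 and Fkbp3 (adjusted p = 0.193, ratio 0.749 to 1.49), Fkbp2 and Fkbp9 (adjusted p = 0.367, ratio 0.722 to 1.54), and Fkbp5 and Fkbp10 (adjusted p = 0.0603, ratio 0.850 to 2.02), all in the same exact permutation test. Without tacrolimus replicate 3, 8 pairs passed.

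**Figure D1:**
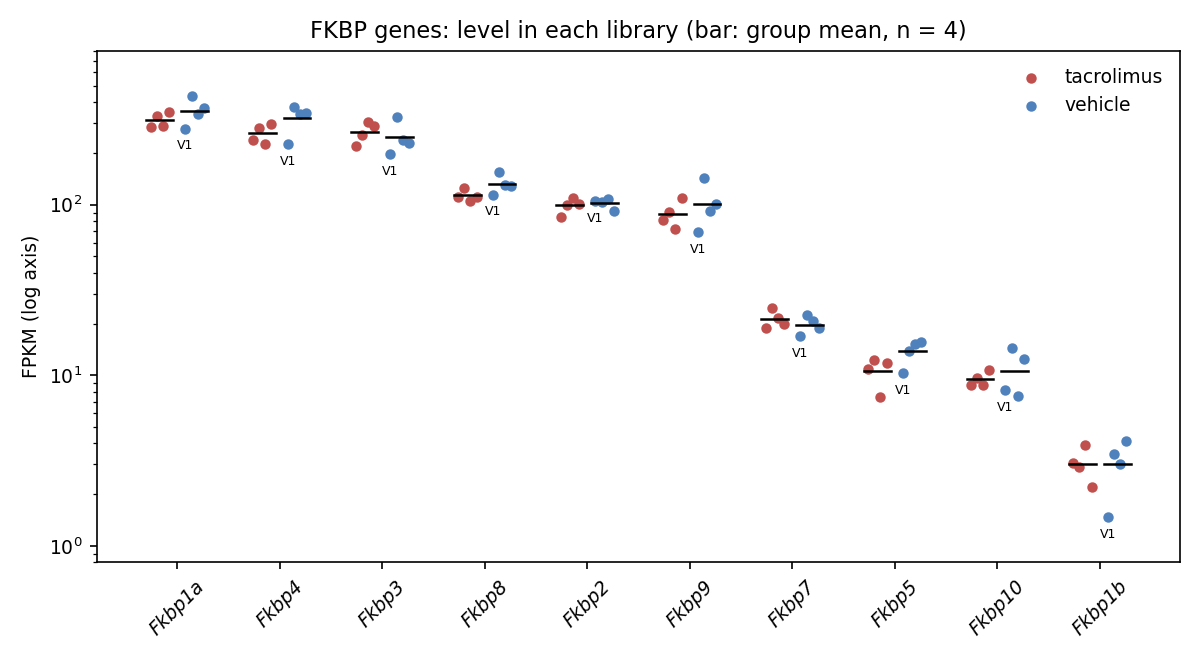
FPKM of the 10 FKBP genes in each library on a log axis, with tacrolimus libraries in red, vehicle libraries in blue and bars at the group means (n = 4 each); V1 marks vehicle replicate 1. Fkbp1a, Fkbp4 and Fkbp3 lie between 199 and 432 FPKM in every library and Fkbp1b between 1.47 and 4.14, and the groups overlap for each gene.

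None of the 10 genes passed the comparison of tacrolimus with vehicle. In limma on log2(FPKM + 1), no member had an adjusted p under 0.05 over the 13032 genes tested, and the smallest adjusted p among them was 0.363, for Fkbp5. No gene of the whole table passed either (0% called), and the smallest adjusted p over all genes was 0.139, with 2264 genes at an unadjusted p under 0.05. As deposited, no member was at an unadjusted p under 0.05, where 15.8% of all genes were and were lower with tacrolimus. The groups overlapped for all 10 members. Over all genes they were lower without overlap for 10.2% and higher without overlap for 0.767%.

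The direction of the small differences depended on the scaling. As deposited, 7 of 10 members had a lower mean log2 value with tacrolimus and the members' median difference was -0.14, where 75.7% of all genes were lower and their median was -0.19. With median-of-ratios scaling, which sets the typical gene equal between libraries, 2 of 10 members were lower, the members' median was 0.07 and the median of all genes 0.00. The share of all genes that were lower was then 50.0%. Under that scaling limma again called none of 13013 genes (0% called), with 1456 at an unadjusted p under 0.05. The latter included 2 of 10 members, Fkbp3 and Fkbp7, both higher with tacrolimus, where 5.46% of all genes were higher at that threshold. Each member's difference is therefore given on both scales below.

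**Figure D2:**
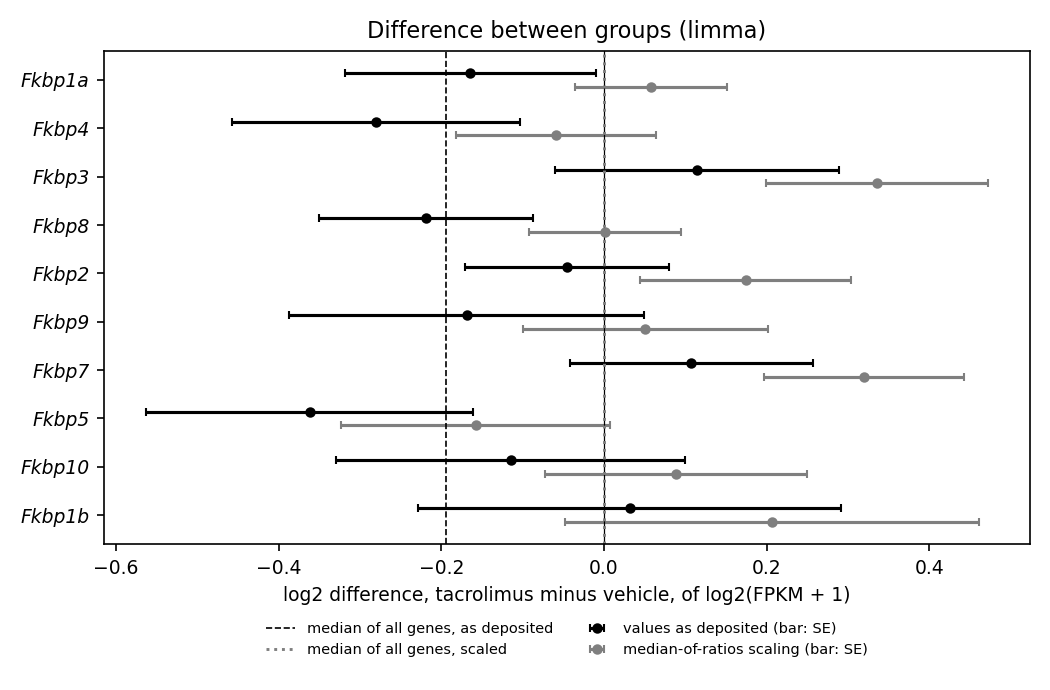
Difference between groups for each FKBP gene, tacrolimus minus vehicle in log2(FPKM + 1), from limma with bars of 1 SE; black points are the values as deposited, grey points those after median-of-ratios scaling, and vertical lines the medians of all genes. As deposited 7 points lie below 0, and after scaling 2 do, Fkbp4 and Fkbp5.

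Fkbp1a encodes FKBP12, the receptor through which tacrolimus reaches calcineurin (ENSMUSG00000032966, GRCm38 chromosome 2, 151542483 to 151561692, plus strand). Its level was 287, 333, 290 and 349 FPKM in tacrolimus replicates 1 to 4 and 280, 432, 342 and 370 FPKM in vehicle replicates 1 to 4. The lowest and the highest library were both vehicle libraries, replicates 1 and 2, and the tacrolimus values lay between them. The difference was -0.16 on the log2 scale (SE 0.15, 95% interval -0.51 to 0.18, limma adjusted p = 0.578) and turned to 0.06 with median-of-ratios scaling (limma adjusted p = 0.824). After that scaling 7 libraries lay between 331 and 352, and vehicle replicate 1 at 283. Fkbp1a thus varied little once libraries were put on a common scale, apart from the library with the highest T cell and lowest melanoma sums. The part of that composition in its low value was not tested. Annotated pseudogenes of Fkbp1a (Fkbp1a-ps1, Fkbp1a-ps2 and Fkbp1a-ps3) were listed at 0 in all 8 libraries. The first of them shares 95.2% of letters with Fkbp1a over 251 bases, so how reads were divided between the copies could touch the level of Fkbp1a.

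Fkbp1b encodes FKBP12.6, the close paralog of FKBP12 known for binding the ryanodine receptor of heart muscle (ENSMUSG00000020635, chromosome 12, 4833174 to 4841591, minus strand). It was at 3.06, 2.91, 3.88 and 2.20 FPKM with tacrolimus and 1.47, 3.44, 3.03 and 4.14 FPKM with vehicle. Vehicle replicate 1 was again the lowest and vehicle replicate 4 the highest, so the vehicle values enclosed the tacrolimus values. The difference was 0.03 (SE 0.26, limma adjusted p = 0.959), 0.21 after scaling, and turned to -0.19 without vehicle replicate 1 and -0.07 without tacrolimus replicate 3. Fkbp1a exceeded Fkbp1b by between 74.8-fold, in tacrolimus replicate 3, and 190-fold, in vehicle replicate 1. The log2 ratio of Fkbp1a to Fkbp1b did not differ between groups beyond its spread (difference -0.23, exact two-sided permutation p = 0.543, adjusted p = 0.724 over 4 ratios, with 0.02857 as the smallest p that the 70 assignments can give). FKBP12 transcripts thus made up nearly all of the summed transcripts of this pair in every library.

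The sequences just upstream of the start sites of Fkbp1a and Fkbp1b are shown because this pair encodes closely related proteins at very different transcript levels. They are the 250 bases before the RefSeq start in GRCm38.p6, chr2:151542233-151542482 on the plus strand and chr12:4841574-4841823 on the minus strand, each written 5′ to 3′ along its gene. Capitals mark GC boxes, CCAAT boxes and heat shock dyads, searched on both strands. A GC box has the letters GGGCGG and a CCAAT box those of its name. The dyad searched, that is, a pair of inverted heat shock units, was GAANNTTC.
Fkbp1a: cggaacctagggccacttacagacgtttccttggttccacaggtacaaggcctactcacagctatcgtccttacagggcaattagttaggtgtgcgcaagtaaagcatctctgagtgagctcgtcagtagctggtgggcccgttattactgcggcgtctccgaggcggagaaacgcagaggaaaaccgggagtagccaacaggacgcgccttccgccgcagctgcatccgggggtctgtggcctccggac
Fkbp1b: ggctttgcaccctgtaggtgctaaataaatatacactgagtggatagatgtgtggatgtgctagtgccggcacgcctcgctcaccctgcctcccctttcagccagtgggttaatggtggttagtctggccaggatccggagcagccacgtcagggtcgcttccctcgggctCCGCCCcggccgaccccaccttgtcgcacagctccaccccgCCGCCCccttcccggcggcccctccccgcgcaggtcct
The Fkbp1a window held none of these motifs, with 18 CpG dinucleotides and 58.4% G or C. The Fkbp1b window held 2 GC boxes, with 17 CpG and 64.8% G or C. Over all 32851 windows of the same length, 32.7% held a GC box, 33.8% a CCAAT box and 6.69% the heat shock dyad, and the medians were 6 CpG and 52.4% G or C. Both windows thus lay above the median in CpG, and a GC box was present only in the gene with the lower level of this pair. A match describes letters and is not a measured binding site.

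The partners of FKBP12 were measured alongside. Of the 4 tested calcineurin subunits, which form the phosphatase that the drug complex blocks, none passed in limma, 3 had a lower mean and 1 a higher one, and their median difference was -0.20 (0.01 after scaling). Ppp3r1, the regulatory subunit, averaged 38.0 ± 4.70 FPKM with tacrolimus and 48.2 ± 1.37 with vehicle without overlap between groups (limma adjusted p = 0.233). Ppp3cc, a catalytic subunit, was at 10.1 ± 0.90 and 16.2 ± 5.79 FPKM, also without overlap, with the largest difference of the 4 (-0.58, limma adjusted p = 0.234). Over all genes 10.2% were lower without overlap as deposited, and after scaling the groups of Ppp3r1 overlapped (difference -0.13). Ppp3cb, another catalytic subunit, was higher with tacrolimus, at 21.2 ± 2.83 and 17.4 ± 3.56 FPKM. Its difference was 0.29 (limma adjusted p = 0.425) and 0.50 after scaling (limma adjusted p = 0.418). Ppp3ca, the third, was at 15.1 ± 2.31 and 16.9 ± 7.75 FPKM. Fkbp1a was 3.53, 4.11, 3.74 and 3.59 times the summed calcineurin subunits with tacrolimus and 2.38, 4.69, 4.22 and 3.55 times with vehicle. Vehicle replicate 1 was the lowest and replicate 2 the highest, and the tacrolimus libraries lay close together between them. The log2 ratio differed by 0.05 between the groups (exact two-sided permutation p = 0.886, adjusted p = 0.886), and by -0.14 without vehicle replicate 1 (adjusted p = 0.571).

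Among other known partners of FKBP12 and FKBP12.6, 9 of 11 genes were tested and none passed in limma, with 6 lower and 3 higher by mean and a median of -0.25 (-0.08 after scaling). Acvr1, a type I receptor of the TGF-beta superfamily, averaged 13.1 ± 1.79 FPKM with tacrolimus and 11.6 ± 1.99 with vehicle. Tgfbr1, the type I TGF-beta receptor to which FKBP12 binds, was at 9.86 ± 11.9 and 4.51 ± 0.74 FPKM, the tacrolimus mean resting on replicate 1 at 27.7 FPKM where the others lay between 3.76 and 4.09. Ryr3, a ryanodine receptor, was at 5.41 ± 2.02 and 6.65 ± 1.01 FPKM. Ryr2, the receptor of heart muscle, was listed at 0 in 7 libraries and at 0.03 FPKM in tacrolimus replicate 1.

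The cyclophilins and parvulins are isomerases of other families, and cyclophilin A, the product of Ppia, is the receptor of the drug cyclosporin. Of 18 tested, none passed in limma, 13 were lower and 5 higher by mean, and the median was -0.06 (0.15 after scaling). Ppia averaged 4179 ± 386 FPKM with tacrolimus and 4006 ± 907 with vehicle. Ppib, an isomerase of the endoplasmic reticulum, was at 266 ± 23.4 and 315 ± 30.3 FPKM, and Ppid, an HSP90 co-chaperone, at 90.7 ± 8.60 and 96.5 ± 15.2. The Ppia level was between 8.15 and 15.8 times that of Fkbp1a. The lowest multiple was in vehicle replicate 4 and the highest in tacrolimus replicate 3. The log2 ratio of Fkbp1a to Ppia differed by -0.25 between groups (exact two-sided permutation p = 0.229, adjusted p = 0.724).

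**Figure D3:**
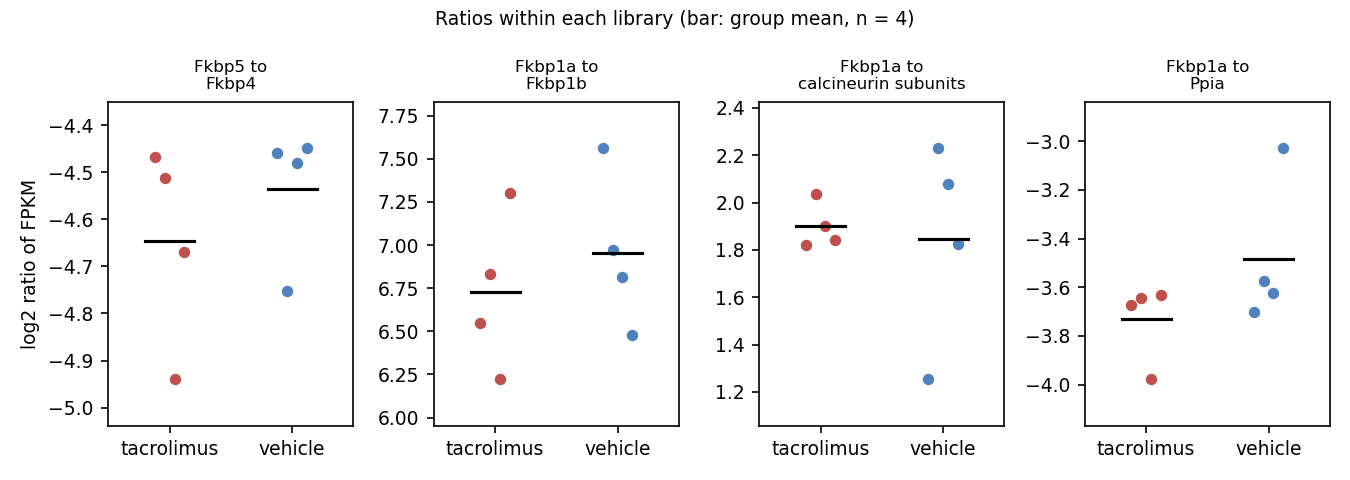
Log2 ratios of FPKM within each library for Fkbp5 to Fkbp4, Fkbp1a to Fkbp1b, Fkbp1a to the summed calcineurin subunits and Fkbp1a to Ppia, with bars at the group means (n = 4 each) and a separate axis range in each panel. The groups overlap in all 4 panels, and vehicle replicate 1 is the lowest point for calcineurin at 1.25.

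Fkbp4 and Fkbp5 encode FKBP52 and FKBP51, co-chaperones that bind HSP90 through tetratricopeptide repeats. FKBP52 favours and FKBP51 restrains the activity of the glucocorticoid receptor, and Fkbp5 is itself a known glucocorticoid-induced gene. Fkbp4 (ENSMUSG00000030357, chromosome 6, 128429735 to 128438677, minus strand) was at 240, 280, 228 and 299 FPKM with tacrolimus and 227, 377, 340 and 345 FPKM with vehicle. Vehicle replicate 1 was the lowest of the 8 and the other 3 vehicle libraries were the highest. The difference was -0.28 (SE 0.18, 95% interval -0.68 to 0.11, limma adjusted p = 0.417) and -0.06 after scaling. Without vehicle replicate 1, the library with the lowest Fkbp4, it was -0.44 (SE 0.14, limma adjusted p = 0.201) and the groups did not overlap, also after scaling. As deposited, 19.1% of all genes were lower without overlap in that setting. The share after scaling was not counted, and the scaled difference of Fkbp4 there was -0.17 (limma adjusted p = 0.455).

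Fkbp5 (ENSMUSG00000024222, chromosome 17, 28399094 to 28517527, minus strand) was at 10.8, 12.3, 7.43 and 11.7 FPKM with tacrolimus and 10.3, 13.95, 15.2 and 15.8 FPKM with vehicle. Tacrolimus replicate 3 was the lowest, and vehicle replicate 1 lay among the tacrolimus values while the other vehicle libraries lay above them. The difference was -0.36 (SE 0.20, 95% interval -0.81 to 0.09, limma adjusted p = 0.363), -0.16 after scaling, and -0.49 without vehicle replicate 1 (limma adjusted p = 0.214). Fkbp4 and Fkbp5 had a negative difference under all 16 alternative settings, and neither passed the threshold under any of them. The filters, the replicate block and robust eBayes cannot change a difference, and all settings reuse these libraries. The shared sign is therefore not independent evidence. Fkbp4 exceeded Fkbp5 by 21.9-fold to 30.8-fold, and the log2 ratio of Fkbp5 to Fkbp4 differed by -0.11 between groups (exact two-sided permutation p = 0.486, adjusted p = 0.724). A stretch of 177 bases of an Fkbp5 transcript matches one of Atg2a at 97.2%, and Atg2a lay between 1.80 and 4.49 FPKM, so the division of reads there is uncertain.

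The windows upstream of this pair are shown because the genes encode co-chaperones of like build and unequal level. The coordinates are chr6:128438657-128438906 for Fkbp4 and chr17:28486150-28486399 for Fkbp5, both on the minus strand in GRCm38.p6, with the same marking. The Fkbp5 start in RefSeq lies within the longer gene span of the GENCODE annotation.
Fkbp4: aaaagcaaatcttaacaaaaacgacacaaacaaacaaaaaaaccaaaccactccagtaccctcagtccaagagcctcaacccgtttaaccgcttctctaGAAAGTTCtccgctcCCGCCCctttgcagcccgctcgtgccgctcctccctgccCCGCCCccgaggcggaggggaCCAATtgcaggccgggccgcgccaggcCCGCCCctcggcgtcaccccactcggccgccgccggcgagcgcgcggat
Fkbp5: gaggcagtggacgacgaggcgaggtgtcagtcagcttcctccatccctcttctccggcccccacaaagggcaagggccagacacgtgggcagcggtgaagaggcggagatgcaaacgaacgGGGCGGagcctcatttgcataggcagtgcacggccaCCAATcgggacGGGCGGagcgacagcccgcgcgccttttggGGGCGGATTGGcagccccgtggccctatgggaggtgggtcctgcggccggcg
The Fkbp4 window held 3 GC boxes, 1 CCAAT box and 1 heat shock dyad, with 25 CpG. The Fkbp5 window held 3 GC boxes and 2 CCAAT boxes and no heat shock dyad, with 23 CpG. Its last GC box and last CCAAT box, read on the other strand, adjoin. The glucocorticoid element (GNACANNNTGTNC), held by 0.387% of all windows, was not among the letters of these 4 windows, which says nothing of more distant sites. Among the members whose windows are not shown, that of Fkbp7 held 1 match to it.

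Of 14 tested genes of the HSP90 and steroid receptor complex, none passed in limma, 13 were lower and 1 was higher by mean, and the median was -0.30 (-0.08 after scaling). Hsp90aa1, the inducible HSP90, averaged 1393 ± 254 FPKM with tacrolimus and 1371 ± 282 with vehicle. Hspa8, the constitutive HSP70, was at 859 ± 81.8 and 1105 ± 25.1 FPKM without overlap (limma adjusted p = 0.207), and Hsp90ab1, the constitutive HSP90, at 719 ± 63.4 and 861 ± 20.4 FPKM without overlap (limma adjusted p = 0.287). As deposited, each of these 2 genes had close values in all 4 vehicle libraries, replicate 1 included, unlike Fkbp4. Over all genes 10.2% were lower without overlap. After scaling, vehicle values ran from 927 to 1126 for Hspa8, with tacrolimus values just below at 920 to 924. Those of Hsp90ab1 ran from 719 to 883 with vehicle, and its groups then overlapped. Nr3c1, the glucocorticoid receptor, was at 10.4 ± 3.01 and 17.6 ± 8.38 FPKM, with vehicle replicate 1 the highest at 29.7.

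Glucocorticoid-induced genes, 13 of 15 tested, included none that passed in limma. By mean 10 were lower and 3 higher, with a median of -0.60 (-0.47 after scaling). The 3 most abundant had differences on both sides of 0. The metallothionein genes Mt1 and Mt2 were at 4585 ± 756 and 1209 ± 207 FPKM with tacrolimus and at 3436 ± 1057 and 886 ± 299 with vehicle. Nfkbia, which encodes an inhibitor of NF-kB, was at 80.0 ± 16.5 and 226 ± 212 FPKM, with vehicle replicate 1 at 543. Tsc22d3, the glucocorticoid-induced leucine zipper, was at 17.9, 15.98, 17.5 and 21.3 FPKM with tacrolimus and 102, 24.2, 23.7 and 38.99 FPKM with vehicle. Vehicle replicate 1 was by far the highest, and the vehicle mean without that library was 29.0. In that same library Fkbp5 was the lowest of the vehicle values. That library also had the highest T cell and macrophage marker sums, and the part of cell composition in these values was not tested.

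Fkbp3 encodes FKBP25, a nuclear family member that binds nucleic acid (ENSMUSG00000020949, chromosome 12, 65062424 to 65074007, minus strand). It was at 220, 257, 305 and 289 FPKM with tacrolimus and 199, 327, 240 and 232 FPKM with vehicle. Vehicle replicates 1 and 2 were the lowest and the highest, and the other 2 vehicle libraries lay below 3 of the tacrolimus libraries. The difference was 0.11 (SE 0.17, limma adjusted p = 0.744) and 0.34 after scaling (limma adjusted p = 0.433). It was positive under all 16 alternative settings, though the filters, the replicate block and robust eBayes cannot change it. Exons of Fkbp3 share 599 bases, or 7.63% of their length, with Prpf39 on the opposite strand, at 9.64 to 18.0 FPKM. Whether the counting used strand is not given in the sources used here.

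Fkbp8 encodes FKBP38, which is anchored in the outer mitochondrial membrane, binds BCL2 and acts as a receptor in mitophagy (ENSMUSG00000019428, chromosome 8, 70527724 to 70535328, plus strand). It was at 111, 126, 105 and 112 FPKM with tacrolimus and 115, 156, 131 and 129 FPKM with vehicle. Only vehicle replicate 1 lay within the tacrolimus range. The difference was -0.22 (SE 0.13, 95% interval -0.51 to 0.07, limma adjusted p = 0.395) and 0.00 after scaling. Without vehicle replicate 1 it was -0.28 (limma adjusted p = 0.246) and the groups did not overlap as deposited, where 19.1% of all genes were lower without overlap. Kxd1, on the opposite strand at 34.2 to 49.4 FPKM, shares 4.95% of the exon bases of Fkbp8.

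Of 11 tested genes for partners of FKBP38 at mitochondria, none passed in limma, 8 were lower and 3 higher by mean, and the median was -0.12 (0.10 after scaling). The mitophagy receptor genes Bnip3 and Bnip3l had higher means with tacrolimus, at 552 ± 99.8 against 427 ± 145 FPKM and 263 ± 30.4 against 230 ± 33.5 FPKM. Gabarap, an autophagosome protein, was at 305 ± 19.1 and 358 ± 27.6 FPKM without overlap as deposited (limma adjusted p = 0.326), where 10.2% of all genes were lower without overlap. Fkbp8 and Gabarap were thus both lower by mean as deposited, and after scaling their differences were 0.00 and -0.01.

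The remaining members reside in the endoplasmic reticulum. Fkbp2, which encodes FKBP13 (ENSMUSG00000056629, chromosome 19, 6977741 to 6980501, minus strand), was at 85.3, 100, 110 and 101 FPKM with tacrolimus and 105, 104, 108 and 92.1 FPKM with vehicle. As deposited, the lowest and highest libraries were tacrolimus replicates 1 and 3, only 1.29-fold apart, and the groups overlapped almost wholly. After scaling the values ran from 83.5 to 129. The difference was -0.05 (SE 0.13, 95% interval -0.32 to 0.23, limma adjusted p = 0.863), which turned to 0.17 after scaling and to 0.02 without tacrolimus replicate 1. Fkbp7 encodes FKBP23, a partner of the chaperone BiP (ENSMUSG00000002732, chromosome 2, 76663044 to 76673116, minus strand). It was at 19.1, 24.7, 21.8 and 20.02 FPKM with tacrolimus and 17.02, 22.5, 20.8 and 18.8 FPKM with vehicle. Vehicle replicate 1 was the lowest and tacrolimus replicate 2 the highest. The difference was 0.11 (SE 0.15, limma adjusted p = 0.716) and 0.32 after scaling (limma adjusted p = 0.420). It stayed positive under all 16 alternative settings, with the same limit as for Fkbp3.

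Fkbp9 encodes a luminal protein with several FKBP domains (ENSMUSG00000029781, chromosome 6, 56832059 to 56879358, plus strand). It was at 81.5, 90.3, 71.7 and 109 FPKM with tacrolimus and 69.4, 144, 92.1 and 101 FPKM with vehicle. Vehicle replicate 2 was 2.07-fold above vehicle replicate 1, and all tacrolimus values lay between them. The difference of -0.17 (SE 0.22, limma adjusted p = 0.693) turned to 0.05 after scaling and to 0.01 without vehicle replicate 2. Fkbp10 encodes FKBP65, a collagen chaperone whose loss causes brittle bone disease (ENSMUSG00000001555, chromosome 11, 100415697 to 100424824, plus strand). It was at 8.78, 9.64, 8.74 and 10.7 FPKM with tacrolimus and 8.20, 14.4, 7.56 and 12.5 FPKM with vehicle. Its tacrolimus libraries lay close together between 2 low and 2 high vehicle libraries. The difference of -0.11 (SE 0.21, limma adjusted p = 0.794) turned to 0.09 after scaling and to 0.03 without vehicle replicate 2. Nt5c3b, on the opposite strand, shares 6.58% of the exon bases of Fkbp10 and was more abundant, at 38.4 to 65.8 FPKM, so the level of Fkbp10 is uncertain.

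Other genes of the endoplasmic reticulum were measured beside these 4 members. All 15 tested chaperone genes had a lower mean with tacrolimus, 10 of them at an unadjusted p under 0.05, with a median of -0.39. Over all genes 75.7% were lower, and 15.8% were lower at that threshold. After scaling 13 of 15 were lower, 7 of them at an unadjusted p under 0.05 (5.73% of all genes), with a median of -0.17. None passed over all genes in limma. T cell markers (12 of 12 lower, all 12 at an unadjusted p under 0.05) and macrophage markers (12 of 12 lower, 8 at that threshold) were lower as deposited too. After scaling all 12 T cell markers were still lower, 9 of them at that threshold, as were all 12 macrophage markers, 1 of them at that threshold. The part of these cell types in the chaperone values was not tested. Hspa5, which encodes BiP, averaged 305 ± 48.3 FPKM with tacrolimus and 437 ± 40.9 with vehicle without overlap (limma adjusted p = 0.193). Over all genes 10.2% were lower without overlap as deposited. Calr, the calcium-binding calreticulin, was at 366 ± 62.2 and 533 ± 84.6 FPKM, and Hsp90b1, the HSP90 of this compartment, at 250 ± 34.3 and 290 ± 31.6. Fkbp7, the BiP partner, thus had a difference of 0.11 beside -0.52 for Hspa5, and that contrast itself was not tested. Of 17 tested genes of collagen folding and modification, with which Fkbp10 works, none passed in limma and 13 were lower and 4 higher by mean (median -0.24, or -0.02 after scaling). P4hb, a subunit of prolyl hydroxylase, was at 353 ± 40.9 and 389 ± 70.1 FPKM and the collagen chaperone gene Serpinh1 at 234 ± 37.4 and 290 ± 59.8. Ppib, given above, is the other of the 3 most abundant of them.

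The members varied between libraries to unlike degrees. For the values as deposited, on the log2(FPKM + 1) scale, the SD over the 8 libraries was 0.12 for Fkbp2, 0.16 for Fkbp7 and 0.18 for Fkbp8. Of the genes within 2-fold of their levels, 98.96%, 96.03% and 85.8% varied more. Fkbp9 had an SD of 0.34, and 25.5% of genes at its level varied more. The highest library was 1.29-fold above the lowest for Fkbp2 and 2.82-fold for Fkbp1b, which was the least abundant. After scaling Fkbp2 ran from 83.5 to 129 and Fkbp1a from 283 to 352. The spread after scaling was not compared with that of other genes, so the steadiness of Fkbp2 for its level is known only as deposited.

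The extremes recurred in the same libraries. Vehicle replicate 1 was the lowest library for 6 of 10 members, and vehicle replicate 2 the highest for 6. The summed FPKM of the 10 members was 1067, 1236, 1152 and 1303 with tacrolimus and 1032, 1593, 1300 and 1319 with vehicle. After scaling, vehicle replicate 1 was the lowest for 5 members and vehicle replicate 2 the highest for 3. The mean log2 level of melanoma markers was lowest in vehicle replicate 1, at 8.49, and 9.25 in vehicle replicate 2, with 8.59 to 8.98 in the tacrolimus libraries. That of T cell markers was 6.83 in vehicle replicate 1 and 4.80 in vehicle replicate 2, with 2.24 to 4.76 in the tacrolimus libraries. The part of cell composition in the members' values was not tested.

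Without vehicle replicate 1, an alternative examined because that library stood apart, 3 of 10 members were lower with tacrolimus without overlap between the groups: Fkbp4, Fkbp5 and Fkbp8. Over all genes this held for 19.1% of 12769. Fkbp4 reached 299 FPKM at most with tacrolimus and lay at 340 or more in the 3 vehicle libraries, Fkbp5 at 12.3 and 13.95, and Fkbp8 at 126 and 129. After scaling Fkbp4 alone of the 3 kept the separation. The share of all genes that did so was not counted, so this separation cannot be judged against them. The scaled difference of Fkbp4 in this setting was -0.17 (limma adjusted p = 0.455). At an unadjusted p under 0.05 in this fit, 2 of 10 members were lower, Fkbp4 and Fkbp5, as were 19.3% of all genes. No member had an adjusted p under 0.05 in it.

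**Figure D4:**
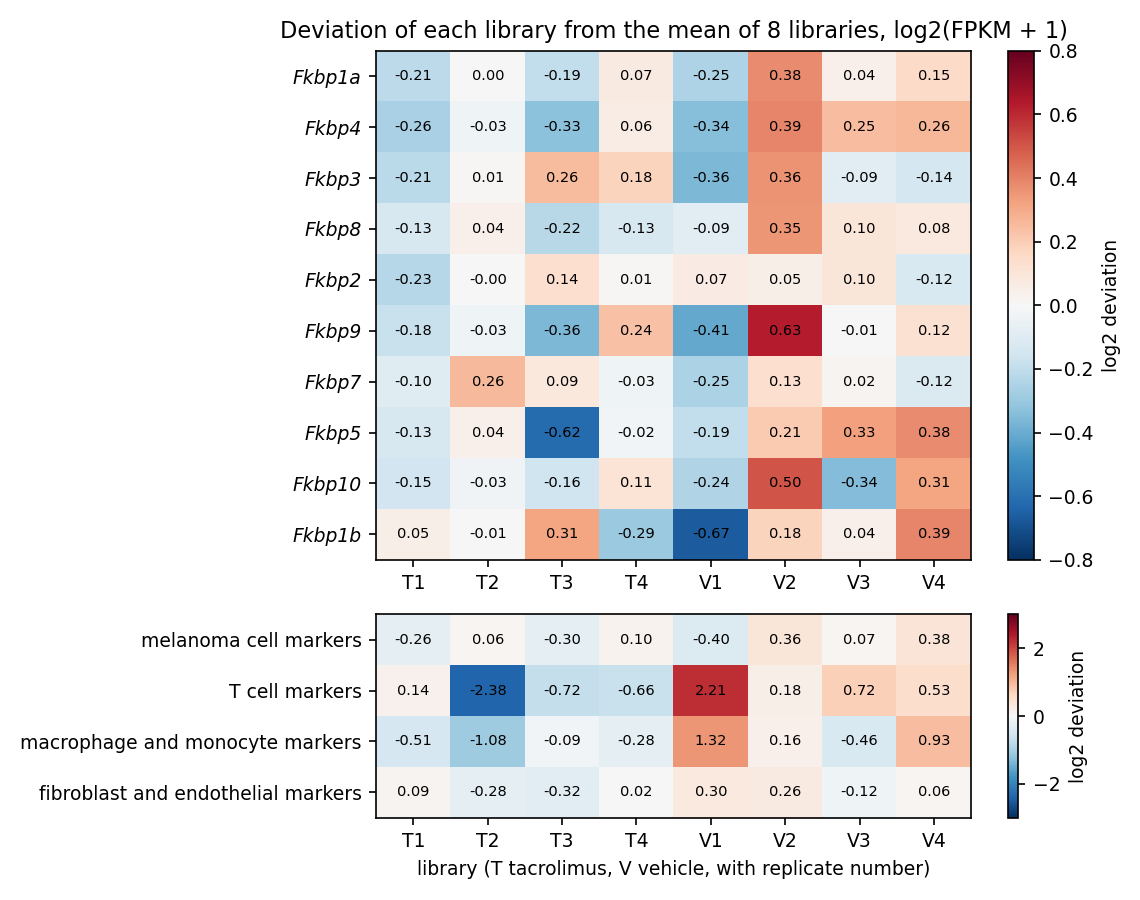
Deviation of each library from the mean of the 8 libraries in log2(FPKM + 1), with FKBP genes in the upper panel and mean marker levels in the lower panel on a wider colour scale; T is tacrolimus, V is vehicle, and the digit is the replicate. Vehicle replicate 1 is negative for 9 of the 10 genes and for melanoma markers and positive for T cell markers, and vehicle replicate 2 is positive for all 10 genes.

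Within libraries, Fkbp1a kept the steadiest proportion to Fkbp4 and Fkbp8. The SD of the log2 ratio was 0.11 for both pairs, the smallest of the 45 pairs of members, and Fkbp1a was 2.44 to 3.13 times Fkbp8 in every library. The ratio of Fkbp1a to Fkbp9 followed, with an SD of 0.15 and a range of 3.01 to 4.05. Over the 8 libraries and 9314 genes with a mean of 5 FPKM or more, the genes whose log2 level ran most like that of Fkbp1a were Hnrnpab (Pearson r = 0.997), Xrcc5 (0.988) and Shmt2 (0.988). For Fkbp4 they were Hmga1 (0.990), Epdr1 (0.990) and Plxnc1 (0.988), and for Fkbp5 they were Coq8a (0.979), Tfeb (0.977) and Rps6ka4 (0.977). These r values describe 8 libraries that share depth and composition differences, and they are the largest of the 9314 compared.

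Of 7 other FKBP-type genes, 6 were tested, none passed in limma, and all 6 had a lower mean as deposited (median -0.27), 4 of them after scaling (median -0.07). Fkbp6, which is known for its part in germ cell meiosis, was nonetheless abundant, at 141 ± 16.5 FPKM with tacrolimus and 151 ± 32.1 with vehicle, above Fkbp8 by mean. Fkbp11, a secretory pathway member, was at 34.9 ± 5.77 and 37.2 ± 8.22 FPKM.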

How the data were processed

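The deposited FPKM values, already scaled by the authors for gene length and library size, were used as given. No header or label names the unit, which was inferred from the values: a library summed to between 890182 and 926808, and low values of short transcripts came in steps set by their length, of which 86.4% to 88.1% lay within 0.15 of a whole multiple. The depths given are estimates from these steps, and counts were not recovered, so no count model was run. Per the submitters' processing notes, DESeq2 1.24.0, HISAT2 2.1.0 and RSEM 1.3.1 are named without role or order, with build GRCm38.p6.

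Groups and replicate numbers came from the sample titles. The table was limited to genes that reached 1 FPKM in 4 or more libraries. Treatment was fitted alone to log2(FPKM + 1) with limma 3.58.1 under R 4.3.3 (lmFit and trended eBayes), and p-values were adjusted by Benjamini-Hochberg over every tested gene. The step was tested on simulated data. Differences are tacrolimus minus vehicle on that scale, which understates changes of low genes such as Fkbp1b. For ratios 0.01 FPKM was added to both values, and 70 assignments of libraries were enumerated. Nothing beyond 1 library per mouse describes the replicates. Alternatives were another pseudocount, other filters, other scalings, robust eBayes, a block for the replicate number, and leaving out 1 library at a time.

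The members, gene lists and tests were chosen with earlier results of these data known. Named genes are all members, the 3 most abundant genes of each list of relatives and partners (marker lists are given as sums or mean levels), the 3 genes most like Fkbp1a, Fkbp4 and Fkbp5, and the references Cd8a, Cd3e, Pmel and Lyz2. Genes given beyond that rule, such as Ppp3cc, Ryr2, Tsc22d3, Nr3c1 and neighbours that share exon bases, were chosen after their values were seen. Symbols were matched by Ensembl identifier (346 identifiers had none), coordinates are GENCODE M21 on GRCm38, and promoter windows are RefSeq on GRCm38.p6, with 9 of 10 members matched. Protein sequences were not analysed here. The result of 1 gene that the rule takes is not reported here. Other steps ran in Python 3.11.15, with matplotlib 3.10.9 for figures.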

Additional observations from a re-analysis of the deposited data

Results flagged for a closer look

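Of 42 groups of 4 libraries examined for the members, their relatives and the ratios, 3 held a library far from the others by Dixon's criterion (gap over range above 0.829), which chance gives in about 1 of 20 groups. Fkbpl, an FKBP-like gene, was at 5.18 FPKM in vehicle replicate 2, against 2.81 to 3.03 in the rest of that group. The log2 ratio of Fkbp5 to Fkbp4 was -4.75 in vehicle replicate 2 and between -4.48 and -4.45 in the other vehicle libraries. The log2 ratio of Fkbp1a to Ppia was -3.98 in tacrolimus replicate 3 and between -3.67 and -3.63 in the other tacrolimus libraries.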

How the results depend on the processing

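No member passed under any of the 16 alternatives (smallest limma adjusted p 0.201), and 12 of 159 member differences changed sign. Under the filters, the replicate block and robust eBayes no sign could change, because they leave each difference as it is. With median-of-ratios scaling the differences turned to 0.057 for Fkbp1a, 0.17 for Fkbp2, 0.0015 for Fkbp8, 0.051 for Fkbp9 and 0.088 for Fkbp10, and the members' median moved to 0.073. That scaling moves the median of all genes from -0.19 to 0.00. With that scaling and no vehicle replicate 1, chosen after seeing the data, Fkbp2 was at 0.23 and Fkbp10 at 0.031, and 1 gene of the whole table passed. With single libraries left out, the difference ranged from -0.10 to 0.024 for Fkbp2, -0.19 to 0.17 for Fkbp1b, -0.33 to 0.013 for Fkbp9 and -0.25 to 0.033 for Fkbp10, and the ratio of Fkbp1a to calcineurin from -0.14 to 0.18. The count of genes passing ranged from 0 to 1, the 1 being without vehicle replicate 1. The cause was not tested. With the replicate block 121 genes passed, none of them a member. With 4 pairs or over 4 ratios the exact tests of a single ratio could not pass, so they say nothing of stability. Correlations of same-numbered libraries (0.215, 0.277, -0.02 and -0.02) do not pair them, and 2 of 4 tacrolimus libraries correlated best with their own number.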

Other observations

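Among other FKBP-type genes, the tacrolimus and vehicle groups had 11.3 ± 2.11 and 14.6 ± 4.71 FPKM of Fkbp14, and 7.52 ± 0.63 and 9.26 ± 2.14 FPKM of Fkbp15 (SD, n = 4 each). Aipl1, known from photoreceptors, fell short of the minimum for testing, with 0.24 ± 0.14 and 0.21 ± 0.13 FPKM. Fkbp6 ran from 106 FPKM in vehicle replicate 1 to 179 in vehicle replicate 2, the same libraries that held the extremes of Fkbp1a, Fkbp3, Fkbp4 and Fkbp9. No other annotated gene shares exon bases with Fkbp6. The composition references Cd3e, of the T cell receptor complex, and Lyz2, of macrophages, averaged 22.5 ± 16.7 and 167 ± 52.7 FPKM in the tacrolimus group and 80.8 ± 45.6 and 444 ± 315 in the vehicle group.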
